A study of Mus musculus with 16 samples.

Results

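Airn, Igf2r, Gnas, Nespas, Grb10 and Ddc are 6 genes of 3 imprinted loci, at which the parental alleles carry different marks. They were taken by name from the deposited tables, which list 55471 genes for DNA methylation and 43984 genes for histone marks. Nespas carries the name Gnasas1 in the methylation table and was matched by its Ensembl identifier, so that all 6 genes were found in both tables. The values come from mouse induced pluripotent stem cell (iPSC) lines, PTC11 and PTC12 from kidney proximal tubule cells (PTC) and TTF1 and TTF4 from tail tip fibroblasts (TTF). Both origins came from mice heterozygous for 4 transgenes, SLC34a1-GCE and tdTomato together with rtTAROSA (neo-in) and OKMS-250, that were 8 to 10 weeks old when kidneys and tails were taken. Doxycycline induced the factors for reprogramming (Oct4, Sox2, Klf4 and c-Myc) in all lines, and the mice had received tamoxifen food from 6 weeks. Cre acted through the SLC34a1 promoter in PTC and came from an episomal plasmid in TTF. Each line is 1 clone that no longer needed doxycycline. Methylation, H3K4me3 and H3K36me3 each have 1 sample or library per line among the samples used, so that a line is the only replicate here. The study's methods report ChIP of these lines in duplicate. Whether the H3K4me3 and H3K36me3 libraries of a line come from the same duplicate was not tested.

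Genomic imprinting leaves a gene active on the allele from one parent and silent on the other. In most imprinted clusters a differentially methylated region is set in the germline, and often it is the promoter of a long noncoding RNA: the maternal copy is methylated and silent, and the paternal copy is transcribed through or beside the protein-coding partner. Such regions are known to keep their parental methylation through the wave of demethylation in the early embryo, and they can gain or lose it in cultured pluripotent cells. At an imprinted promoter H3K4me3, the mark of active gene starts, lies on the unmethylated allele, and H3K36me3 covers the bodies of transcribed genes. The deposited values pool both alleles and ChIP-seq has no strand, so no value below belongs to one allele.

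Airn is the noncoding antisense RNA of the Igf2r locus, known to be made from the paternal allele and to silence Igf2r on it. Igf2r encodes the receptor that binds IGF2 and mannose-6-phosphate proteins and takes IGF2 into lysosomes. On mm10 Airn lies at chr17:12741311-12860136 on the plus strand and Igf2r at chr17:12682406-12769664 on the minus strand. The start of Airn falls in intron 2 of Igf2r, 28353 bp from the Igf2r start, and 23.9% of the Airn body lies inside Igf2r. Nespas is the paternally made antisense RNA of the Gnas locus, at chr2:174281237-174295436 on the minus strand. Gnas encodes the stimulatory G protein alpha subunit, and alternative starts of the same gene make XL alpha s from the paternal and NESP55 from the maternal allele. Its row spans chr2:174284320-174346744 on the plus strand and begins at the most upstream start, that of NESP55, 11116 bp from the Nespas start. The Nespas start falls in intron 3 of a Gnas transcript, and 78.3% of the Nespas body lies inside Gnas. Grb10 encodes an adapter that dampens insulin and IGF receptor signalling, at chr11:11930508-12038683 on the minus strand. Its neighbour Ddc, the DOPA decarboxylase of dopamine and serotonin synthesis, lies at chr11:11814101-11898144 on the same strand, with its start 140539 bp away.

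The starts differ in how many CpGs there are to methylate, which the 250 bases before each RefSeq start show. The sequences are from RefSeq on GRCm38.p6, the build of mm10, written 5′ to 3′ on the strand of the gene with CpGs in capitals. No entry was used for Nespas.
Airn, chr17:12741061-12741310: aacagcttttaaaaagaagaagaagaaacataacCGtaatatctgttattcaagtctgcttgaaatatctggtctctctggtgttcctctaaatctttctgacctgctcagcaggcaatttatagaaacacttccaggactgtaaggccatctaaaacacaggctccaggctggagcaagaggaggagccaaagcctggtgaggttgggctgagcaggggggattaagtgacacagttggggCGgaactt
Igf2r, chr17:12769707-12769956: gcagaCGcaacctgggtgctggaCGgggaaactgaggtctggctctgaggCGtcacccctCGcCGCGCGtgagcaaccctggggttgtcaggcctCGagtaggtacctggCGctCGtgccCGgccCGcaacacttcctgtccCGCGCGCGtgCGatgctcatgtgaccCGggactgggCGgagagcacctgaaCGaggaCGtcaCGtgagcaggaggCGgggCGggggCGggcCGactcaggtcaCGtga
Gnas, chr2:174284070-174284319: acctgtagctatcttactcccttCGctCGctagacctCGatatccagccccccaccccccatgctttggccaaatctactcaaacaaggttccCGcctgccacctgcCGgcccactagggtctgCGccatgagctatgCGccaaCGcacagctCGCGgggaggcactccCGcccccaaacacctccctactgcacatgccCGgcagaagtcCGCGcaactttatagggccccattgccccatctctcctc
Grb10, chr11:12037421-12037670: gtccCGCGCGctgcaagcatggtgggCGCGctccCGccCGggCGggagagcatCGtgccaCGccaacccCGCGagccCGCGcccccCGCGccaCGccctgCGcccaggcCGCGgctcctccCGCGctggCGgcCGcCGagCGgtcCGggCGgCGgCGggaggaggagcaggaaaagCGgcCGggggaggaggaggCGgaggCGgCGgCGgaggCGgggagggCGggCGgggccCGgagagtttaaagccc
Ddc, chr11:11898145-11898394: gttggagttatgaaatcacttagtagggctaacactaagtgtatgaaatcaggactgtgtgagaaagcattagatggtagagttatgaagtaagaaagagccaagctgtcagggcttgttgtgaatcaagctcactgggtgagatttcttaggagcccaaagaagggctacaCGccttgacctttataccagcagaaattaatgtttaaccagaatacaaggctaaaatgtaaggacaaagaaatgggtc
The stretch before Grb10 held 40 CpGs, that before Igf2r 27, before Gnas 14, before Airn 2 and before Ddc 1, against a median of 6 over 32851 promoters.

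The CpGs of Airn lie after its start instead. The methylation window of a gene runs 1000 bp to each side of the start, and that of Airn held 75 CpGs, 5 upstream and 70 downstream. Its first 300 bases, from GRCm38 and in the same format, held 18 of them.
Airn, chr17:12741311-12741610: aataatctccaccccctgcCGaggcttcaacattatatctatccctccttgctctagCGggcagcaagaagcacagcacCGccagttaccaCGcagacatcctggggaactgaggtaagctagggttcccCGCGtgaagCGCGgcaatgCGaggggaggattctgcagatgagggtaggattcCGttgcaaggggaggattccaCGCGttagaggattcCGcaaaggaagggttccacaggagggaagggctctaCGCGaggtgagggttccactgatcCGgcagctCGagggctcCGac
The other windows held 125 CpGs at Igf2r, 108 at Gnas, 78 at Nespas, 65 at Grb10 and 25 at Ddc. The hexamer TGCCGC, the motif bound by the imprint-keeping protein ZFP57 when methylated, was searched on both strands of each window. It was found 5 times at Airn, 5 times at Nespas, 2 times at Gnas, 1 time at Igf2r and 0 times at Grb10 and Ddc. Of all windows 28.5% held it, and of the 13896 windows with at least 60 CpGs 64.7% did. A match is only a description of the letters.

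The windows also fix which promoter each value is about. Of 16 annotated Gnas starts, 2 lay in the methylation window, and those of XL alpha s and of the common Gs alpha transcript did not. Of 9 annotated Grb10 starts 1 lay in its methylation window and 2 in the wider H3K4me3 window. The Grb10 stretch printed above belongs to a start 1263 bp downstream of the start used in the table. That stretch lies outside the methylation window, so its 40 CpGs do not enter the Grb10 fractions. Another annotated start, 10712 bp downstream, is outside both windows. The maternally methylated region of Grb10 is known to lie at a downstream promoter used in neurons, so the fractions here describe the upstream end of the gene.

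The lines differed before any gene was looked at. Averaged over the whole table, methylation (the fraction of methylated CpGs at the start) was 0.372 in PTC11 and 0.482 in PTC12, next to 0.379 in TTF1 and 0.649 in TTF4, and TTF4 was the highest of the 4 lines at 75.4% of 50657 genes. The median H3K4me3 ran from 3.65 RPKM (reads per kilobase scaled to library size, after input subtraction) in TTF4 to 5.01 in TTF1, and the median H3K36me3 from 1.18 in TTF1 to 4.01 in TTF4. Of 9 pluripotency markers 7 to 8 had an H3K4me3 value in each line, Pou5f1, Nanog and Sox2 in all 4 and Esrrb in none. Of 10 proximal tubule markers 1 to 3 had one. Lrp2 had it in all 4 lines, with 4.01, 5.97, 7.15 and 4.16 RPKM in PTC11, PTC12, TTF1 and TTF4. Aqp1 and Hnf4a had it in PTC12 only, and Slc34a1 had no H3K4me3 value in any line. Of 8 fibroblast markers 2 had one in PTC11 (summing to 5.42 RPKM), 6 in each of PTC12 (22.8) and TTF1 (24.4), 5 in TTF4 (16.8), and Col3a1 and Postn had none in any line. The lines were grown on mouse embryonic fibroblast feeders, and the part of feeder cells in the values was not tested. The tables hold no read counts or coverage, so the depth behind each value is unknown and no counting interval can be given.

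DNA methylation at the Airn promoter was the most uneven of the 6 genes. The fraction was 0.336 in PTC11 and 0.342 in PTC12, next to 0.250 in TTF1 and 0.882 in TTF4. The first 3 lines lay within 0.0925 of each other and TTF4 stood far above them. TTF4 exceeded the mean of the other lines by 0.572 at Airn, against a median excess of 0.231 over all genes, which placed Airn at percentile 95.6. At Igf2r the fractions were 0.254, 0.282, 0.321 and 0.555 in the same order of lines. TTF4 was again highest, and its excess of 0.270 sat at percentile 58.1, close to that of a typical gene.

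**Figure D1:**
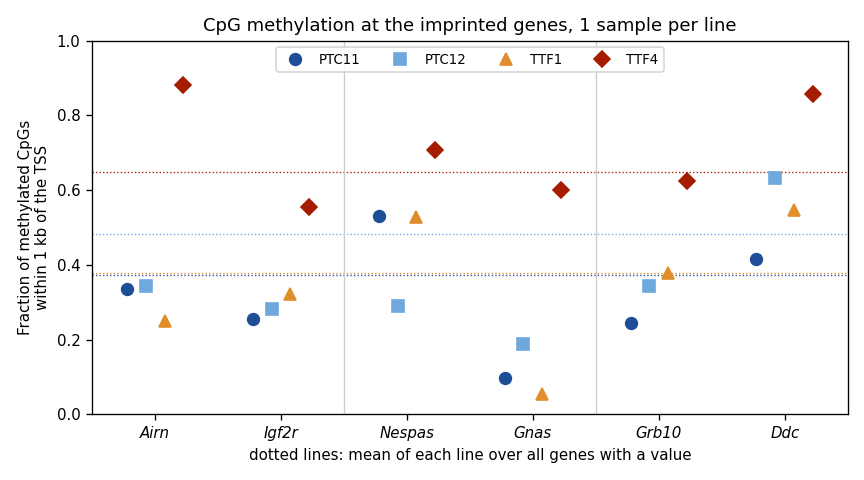
Fraction of methylated CpGs within 1 kb of the start (vertical axis) at the 6 genes (horizontal axis), with 1 point per line and dotted lines at the mean of each line over all genes. TTF4 is the highest point at every gene, from 0.555 at Igf2r to 0.882 at Airn, and Gnas in TTF1 is the lowest point of all at 0.0549.

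The Nespas and NESP55 promoters, which are known to be methylated on opposite parental alleles, differed in which lines stood apart. At Nespas the fraction was 0.530 in PTC11 and 0.290 in PTC12, next to 0.528 in TTF1 and 0.708 in TTF4. PTC12 was lowest there, a place that none of the other 5 genes gave it. At the start of the Gnas row it was 0.0958 in PTC11 and 0.189 in PTC12, next to 0.0549 in TTF1 and 0.600 in TTF4. The lines PTC11 and TTF1, intermediate at Nespas, were nearly unmethylated at Gnas, while TTF4 was above 0.5 at both. The TTF4 excess at Gnas, 0.486, lay at percentile 90.6 of all genes, and that at Nespas, 0.258, at percentile 55.7.

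Further rows of the table start inside the Gnas locus. Gm27849, which starts 99 bp from Nespas, had fractions of 0.525, 0.313, 0.538 and 0.694 in PTC11, PTC12, TTF1 and TTF4. Gm27869, 365 bp away, had 0.508, 0.329, 0.548 and 0.656. Both windows overlap that of Nespas and are no independent measurement of the low value in PTC12. Gm27899 starts 8828 bp from Nespas on the NESP55 side, and its window does not overlap that of the Gnas start. Its fractions were 0.0878, 0.321, 0.0612 and 0.444, so that PTC12 and TTF4 were the higher lines there as at Gnas.

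Grb10 and Ddc were the last pair. Grb10 had fractions of 0.243 in PTC11 and 0.343 in PTC12, next to 0.377 in TTF1 and 0.624 in TTF4. Ddc had 0.415, 0.632, 0.547 and 0.858 in the same lines. Ddc was above Grb10 in every line, and the TTF4 excess was 0.303 at Grb10 and 0.327 at Ddc, at percentiles 64.9 and 69.6.

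TTF4 was thus the highest line at 6 of 6 genes, which is the order of most genes, 75.4% of those tested. Once the mean of each line was subtracted, TTF4 kept 0.23 above its mean at Airn, 0.21 at Ddc and 0.06 at Nespas. Its value after subtraction was -0.03 at Grb10, -0.05 at Gnas and -0.09 at Igf2r. TTF4 was then still the highest line at Airn, Gnas and Ddc. At Gnas the other lines lay at -0.28 in PTC11, -0.29 in PTC12 and -0.32 in TTF1. The highest line after subtraction was PTC11 at Nespas (0.16) and TTF1 at Igf2r and Grb10. In the fractions before subtraction, the highest line without TTF4 was PTC11 at Nespas, PTC12 at Airn, Gnas and Ddc, and TTF1 at Igf2r and Grb10. By mean fraction over the 4 lines the order was Ddc (0.613 ± 0.186, SD, n = 4 lines), Nespas (0.514 ± 0.171), Airn (0.452 ± 0.289), Grb10 (0.397 ± 0.162), Igf2r (0.353 ± 0.138) and Gnas (0.235 ± 0.250). Each gene differed from the next in that order by less than the SD of the difference over lines, except Grb10 and Igf2r, whose mean difference of 0.0438 had an SD of 0.0366 and the same sign in 3 of 4 lines.

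Promoters rich in CpGs are usually unmethylated, and the imprinted starts stood above most of them. Over the 13896 windows with at least 60 CpGs the median fraction was 0.0699 in PTC11 and 0.1000 in PTC12, next to 0.0701 in TTF1 and 0.208 in TTF4. Airn lay between percentiles 91.2 and 96.8 of these windows in the 4 lines. Nespas lay at percentile 89.8 in PTC12 and at 93.5 or above in the other lines, Igf2r between 89.0 and 95.5, and Grb10 between 92.0 and 97.1. The Gnas row was the exception, at percentile 42.4 in TTF1, 61.3 in PTC11, 75.1 in PTC12 and 91.9 in TTF4. Its NESP55 start was near an ordinary CpG-rich promoter in PTC11 and TTF1 and far above one in TTF4.

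**Figure D2:**
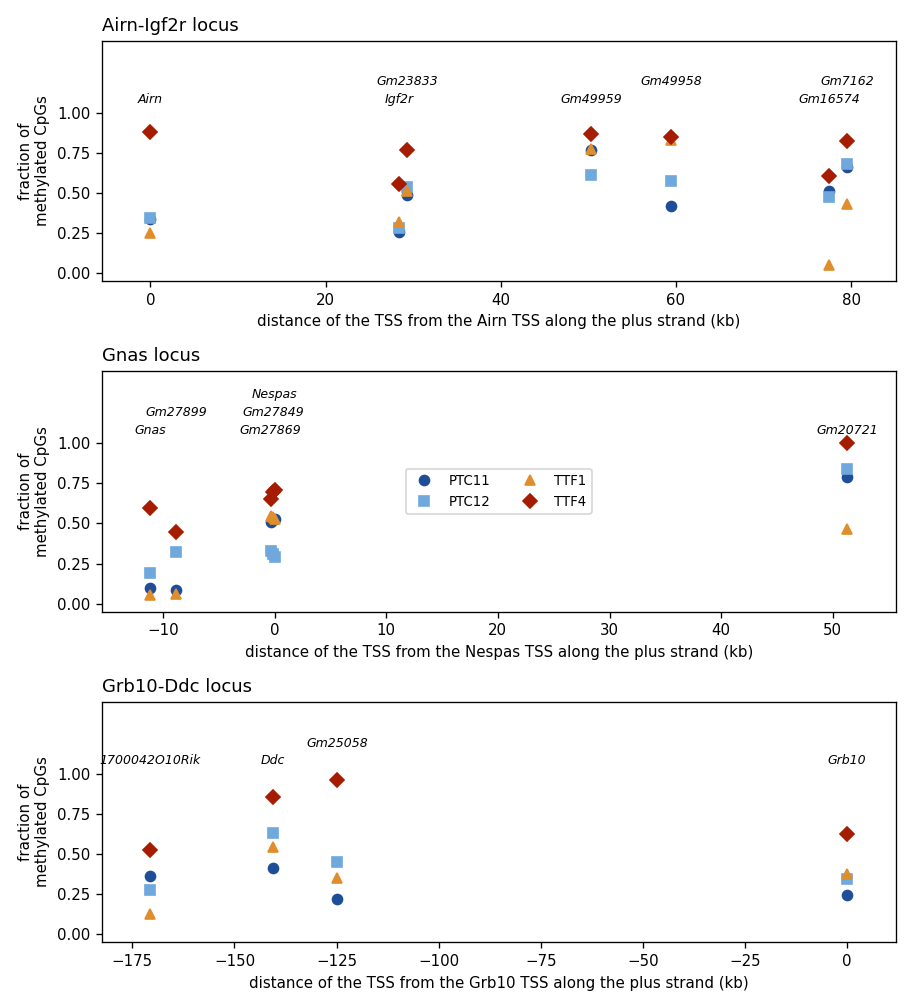
Fraction of methylated CpGs (vertical axis) at the start of each gene row inside the 3 loci, placed by its distance in kb from the start of Airn, Nespas or Grb10 along the plus strand (horizontal axis), with 1 point per line. PTC12 is the lowest line at Nespas and its 2 overlapping neighbours, and TTF4 stands alone above the others at Airn.

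H3K4me3 was missing at Airn in the line with the highest methylation. The value is the mean of the peaks from 2 kb before to 3 kb after the start, and a gene without a retained peak has none. Airn had 2.50 RPKM in PTC11, 3.55 in PTC12 and 3.81 in TTF1, and no value in TTF4. The 3 values were low for each line, at percentiles 6.06, 30.3 and 29.0 of its genes. Of 14824 genes with H3K4me3 in the other 3 lines, 7.52% had none in TTF4, and 8.01% of 14902 had none in PTC11 alone. Over the 905 genes that lacked it in TTF4 alone and had methylation in all lines, the median TTF4 excess of methylation was 0.533. Over 12710 genes with H3K4me3 in all 4 lines it was 0.113. An excess as large as that of Airn was seen at 381 of the 905 and at 145 of the 12710.

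Igf2r kept H3K4me3 in all lines, with 3.30 RPKM in PTC11 and 5.36 in PTC12, next to 5.19 in TTF1 and 3.34 in TTF4. The RNA gene row 7SK beside its start holds the same 4 values, so both rows rest on the same peak. Nespas had 3.39, 4.54, 5.75 and 3.28 RPKM, and Gnas 3.13, 4.34, 4.17 and 2.84. Both Gnas locus promoters were thus marked in every line, TTF4 included. Grb10 had 3.13, 3.84, 5.79 and 2.82 RPKM. PTC12 or TTF1 was the highest and PTC11 and TTF4 were the low lines at each of Igf2r, Nespas, Gnas and Grb10. TTF4 was the lowest line at 3 of these 4 genes, against 47.0% of 13709 genes, and PTC11 at Igf2r. PTC12 or TTF1 was the highest line at 94.7% of all genes. Ddc had no H3K4me3 value in any line, as had 50.5% of the 43984 genes listed.

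H3K36me3 split the lines into the same pairs at all 6 genes, those that the line medians formed as well (1.60 RPKM in PTC11 and 3.88 in PTC12). These RPKM are averages over called peaks. PTC11 had a value at 29905 genes, PTC12 at 23101, TTF1 at 23466 and TTF4 at 20381. From read coverage at Jag1 and Gata3 the study reports the opposite order, with more H3K36me3 in PTC11 and TTF1. The reason for this difference was not tested. Airn had 1.75 RPKM in PTC11 and 4.54 in PTC12, next to 1.52 in TTF1 and 4.45 in TTF4. Igf2r had 1.91, 5.54, 1.55 and 4.14 RPKM. Part of the Airn body is also Igf2r body, so these values share sequence. Nespas had 1.65, 3.63, 1.49 and 2.85 RPKM, and Gnas, which contains most of it, had 1.96, 5.06, 1.42 and 4.53. PTC12 and TTF4 were the higher lines and TTF1 the lowest at every gene, and TTF1 was the lowest line at 84.6% of 17039 genes. PTC12 was the highest line at 4 of 6 genes, against 49.6% of all genes, and TTF4 at Grb10 and Ddc, against 48.4%.

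Grb10 stood out by its level of H3K36me3 in those lines. It had 1.93 RPKM in PTC11 and 8.13 in PTC12, next to 1.29 in TTF1 and 9.03 in TTF4. These values were at percentiles 76.8, 96.0, 61.5 and 98.8 of each line, and its TTF4 excess lay at percentile 98.2 of all genes. Ddc had 1.89, 3.01, 0.997 and 3.21 RPKM, at percentiles 74.6, 26.9, 33.1 and 27.2. Grb10 was far up the range of its line where the line medians were high, and only moderately so in PTC11 and TTF1. This was not particular to Grb10. Nap1l5, another gene at a maternally methylated imprint, had 10.9 RPKM in PTC12 and 9.40 in TTF4, at percentiles 99.3 and 99.1. The medians of the other such imprints with a value were 4.34 RPKM in PTC12 and 4.50 in TTF4. By mean over the lines Grb10 (5.10 ± 4.05 RPKM, SD, n = 4 lines) was followed by Igf2r (3.29 ± 1.89), Gnas (3.24 ± 1.82), Airn (3.07 ± 1.66), Nespas (2.40 ± 1.02) and Ddc (2.28 ± 1.03), and each mean difference between neighbours in that order was smaller than its SD over lines.

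**Figure D3:**
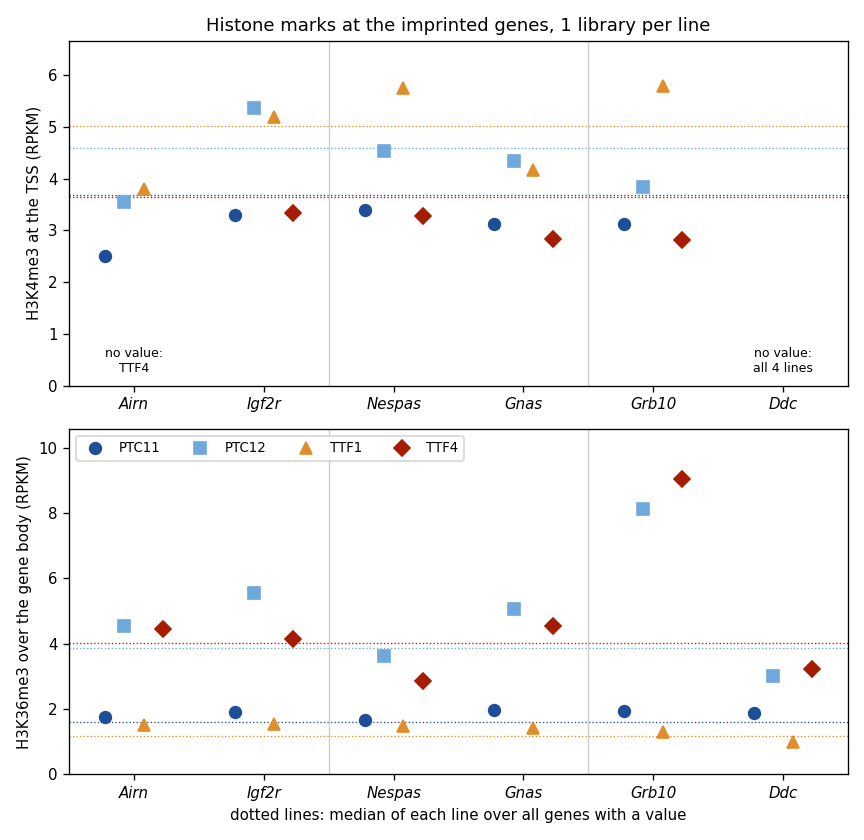
H3K4me3 at the start (top) and H3K36me3 over the gene body (bottom) in RPKM at the 6 genes, with 1 point per line and dotted lines at the median of each line over all genes. Airn has no H3K4me3 point in TTF4 and Ddc has none at all, and Grb10 in PTC12 and TTF4 holds the highest H3K36me3 points, 8.13 and 9.03 RPKM.

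H3K27me3, the mark of Polycomb repression, had no value at any of the 6 genes in any of its 4 libraries. Those libraries had values at 11 to 144 of 43984 genes, so that a missing value says little about a gene. Both PTC libraries of this mark are labelled PTC11, and it was not tested.

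The study asked whether iPSCs keep a trace of their cell of origin, and the 6 genes were compared between TTF and PTC lines for that question. None passed the test in any mark. For methylation the differences of TTF minus PTC, in fraction after subtraction of the line means, were 0.14 (SE 0.15) at Airn, 0.12 (SE 0.16) at Nespas, 0.12 (SE 0.15) at Grb10, 0.10 (SE 0.14) at Gnas, 0.09 (SE 0.16) at Ddc and 0.08 (SE 0.14) at Igf2r. Every adjusted p was 1.00 (limma, Benjamini-Hochberg over 50657 genes), and unadjusted p ran from 0.371 at Airn to 0.560 at Igf2r. Over all genes 0.00395% passed. The TTF lines at Airn averaged 0.566 ± 0.447 (SD, n = 2 lines) and the PTC lines 0.339 ± 0.00459, so that the spread between the TTF lines exceeded the difference between origins. Without TTF4 the difference turned to -0.04 at Airn and at Gnas. In the fractions before subtraction both TTF lines were above both PTC lines at 2 of 6 genes, Igf2r and Grb10, and 20.5% of all genes had that order. Both TTF lines were below both PTC lines at 0 of 6 genes and at 3.36% of all genes. After subtraction Ddc had the first order as well, with 0.04 and 0.15 in the PTC lines and 0.17 and 0.21 in the TTF lines. The share of all genes after subtraction was not computed.

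H3K4me3 could be tested at 4 genes and H3K36me3 at 6, on log2(RPKM + 1), a scale that understates changes of low values. For H3K4me3 the differences of TTF minus PTC were -0.01 (SE 0.40) at Igf2r, -0.07 (SE 0.34) at Gnas, 0.12 (SE 0.40) at Nespas and 0.19 (SE 0.36) at Grb10. Airn was left out for its missing value in TTF4, and Ddc for having none. For H3K36me3 they lay between -0.27 (SE 1.14) at Igf2r and -0.07 (SE 1.10) at Airn, around a median of -0.14 over all genes. Every adjusted p was 1.00 in limma, while 0.481% of 13709 genes and 0.112% of 17039 genes passed. The origins overlapped at every one of these genes. Over all genes both TTF lines were above both PTC lines at 5.04% and below at 3.17% for H3K4me3, and above at 0.452% and below at 3.05% for H3K36me3.

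The partners of each locus were then compared within lines, which share library and depth. An exact permutation test that flips signs over 4 lines cannot give a two-sided p below 0.125, or below 0.25 over 3 lines, so none of the 8 comparisons could pass 0.05. Airn minus Igf2r in methylation was 0.08 in PTC11 and 0.06 in PTC12, next to -0.07 in TTF1 and 0.33 in TTF4. The mean, 0.10 ± 0.17 (SD, n = 4 lines, exact p = 0.375), came mostly from TTF4 and was 0.02 without it. In H3K4me3 Airn was below Igf2r in each line that had both. The difference was -0.36 in TTF1, -0.30 in PTC11 and -0.48 in PTC12 on log2(RPKM + 1). The mean was -0.38 ± 0.09 (SD, n = 3 lines, exact p = 0.250, the smallest possible). In H3K36me3 the mean was -0.06 ± 0.14 (n = 4, exact p = 0.5), with Airn above Igf2r in TTF4 only.

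Nespas was more methylated than the NESP55 start of Gnas in 4 of 4 lines, but by unequal amounts. The difference in fraction was 0.43 in PTC11 and 0.10 in PTC12, next to 0.47 in TTF1 and 0.11 in TTF4. The values fell into a pair of PTC11 with TTF1 and a pair of PTC12 with TTF4, which crosses the cell of origin. This split was not particular to the locus. Mean methylation over all genes was also lower in PTC11 (0.372) and TTF1 (0.379) than in PTC12 (0.482) and TTF4 (0.649). In PTC12 the difference was small at low fractions at both starts, and in TTF4 at high fractions at both. The mean was 0.28 ± 0.20 (SD, n = 4 lines, exact p = 0.125, the smallest possible). H3K4me3 was also higher at Nespas in 4 of 4 lines, by 0.09, 0.05, 0.38 and 0.16 on log2(RPKM + 1) in PTC11, PTC12, TTF1 and TTF4, with a mean of 0.17 ± 0.15 (n = 4, exact p = 0.125). H3K36me3 was lower at Nespas in 3 of 4 lines, with a mean of -0.26 ± 0.25 (n = 4, exact p = 0.250), and TTF1 was the exception at 0.04.

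Grb10 was less methylated than Ddc in 4 of 4 lines. The difference in fraction was -0.17 in PTC11 and -0.29 in PTC12, next to -0.17 in TTF1 and -0.23 in TTF4. The mean was -0.22 ± 0.06 in fraction (SD, n = 4 lines, exact p = 0.125), the steadiest of the methylation pairs. Their windows held 65 and 25 CpGs. H3K36me3 was higher at Grb10 in 4 of 4 lines, by 0.02 in PTC11 and 1.19 in PTC12, next to 0.20 in TTF1 and 1.25 in TTF4 on log2(RPKM + 1). The mean of 0.66 ± 0.65 (n = 4, exact p = 0.125) rested on PTC12 and TTF4, the lines with the higher median RPKM of H3K36me3. Between origins, an exact permutation test of 2 lines against 2 cannot give a two-sided p below 0.333, so none of the 7 comparisons with all 4 lines could pass 0.05. The origins did not overlap in 2 of the 7. Any comparison of 2 lines against 2 without overlap has that exact p of 0.333, and the share over other gene pairs was not computed. Airn minus Igf2r in H3K36me3 was -0.08 and -0.24 in the PTC lines and -0.02 and 0.08 in the TTF lines, and Nespas minus Gnas in H3K4me3, given above, was higher in both TTF lines. Both had the smallest possible exact p of 0.333, and the other 5 comparisons overlapped, with exact p of 0.667 to 1.00.

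**Figure D4:**
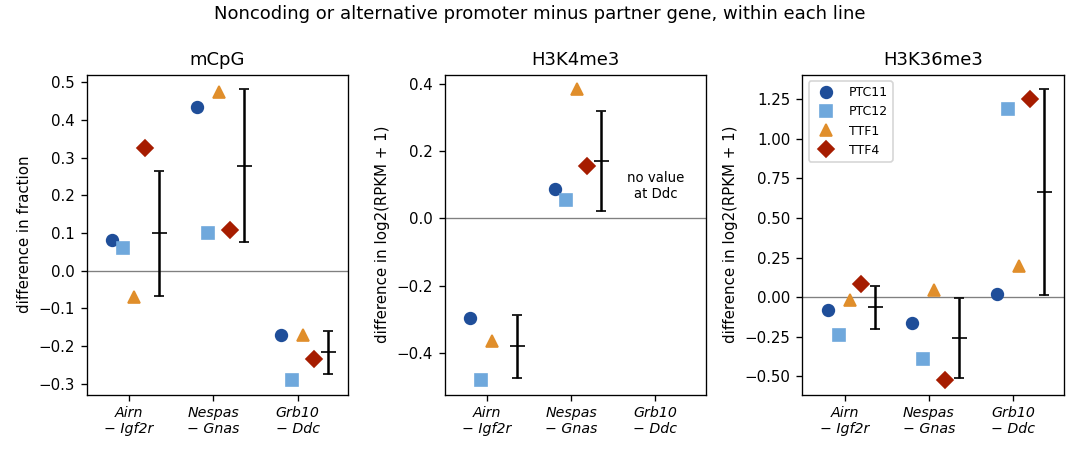
Differences within each line of Airn minus Igf2r, Nespas minus Gnas and Grb10 minus Ddc, in fraction (left) or log2(RPKM + 1) (middle and right). Each line has 1 point, and the mean ± SD over lines is in black. Methylation and H3K4me3 of Gnas are taken around the NESP55 start, and those of Grb10 at its upstream end. Grb10 lies below Ddc in methylation in 4 of 4 lines, while Nespas minus Gnas falls into a high pair, PTC11 and TTF1, and a low pair, PTC12 and TTF4.

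Other maternally methylated imprints and the neighbouring genes show how far the pattern reaches. Of 16 other genes at maternally methylated imprints, TTF4 was the highest line at 9 in methylation, with a median TTF4 excess of 0.205, against 0.231 over all genes. By mean fraction the lowest were Slc38a4 (0.339), an amino acid transporter gene, and Snurf (0.361), and the highest Peg13 (0.80) and Nnat (0.790). None passed the limma threshold in either direction, of 16 tested in methylation, 7 in H3K4me3 and 11 in H3K36me3. In methylation 3 of the 16, Peg3, Usp29 and Peg13, had an unadjusted p under 0.05, as had 4.72% of 50657 genes. Their differences of TTF minus PTC after subtraction of the line means were -0.37, -0.36 and -0.26, and each adjusted p was 1.00 in limma. In the fractions before subtraction the origins overlapped at each of them. TTF1 was above PTC11 at Peg3 and Usp29, and TTF4 (0.956) was above PTC11 (0.802) at Peg13. Peg3 had fractions of 0.319, 0.804, 0.496 and 0.0679 in PTC11, PTC12, TTF1 and TTF4, so TTF4 was low where it was high at Airn. Usp29, which shares a promoter region with Peg3, had 0.305, 0.809, 0.509 and 0.0539, so that both are close to 1 measurement. The 3 genes at paternally methylated imprints had mean fractions of 0.0270 at Rasgrf1, 0.746 at H19 and 0.808 at Meg3. TTF4 was the highest line at H19. All these fractions are taken around the gene start. Whether the windows of these 3 genes and of the 16 cover the differentially methylated region was not tested.

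The genes of that list nearest to Airn, by Euclidean distance over the 4 fractions, were Plagl1 (distance 0.115) and Kcnq1ot1 (0.247). Plagl1, a zinc finger gene, had 0.402, 0.409, 0.184 and 0.880, and Kcnq1ot1, the noncoding RNA of the Kcnq1 cluster, had 0.114, 0.426, 0.229 and 0.948. Both were far higher in TTF4 than in the other lines, as Airn was. Unlike Airn, Plagl1 had an H3K4me3 value in TTF4, 4.26 RPKM, and Kcnq1ot1 is not in the histone table as used here. Of the list Nnat alone lacked the mark in TTF4 and had it in the other 3 lines. Nearest to Nespas were Peg10 (0.335) and Sgce (0.341), which share a promoter region and were likewise lowest in PTC12, at 0.152 and 0.143. Nearest to Grb10 were Snurf (0.154) and Zrsr1 (0.260).

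**Figure D5:**
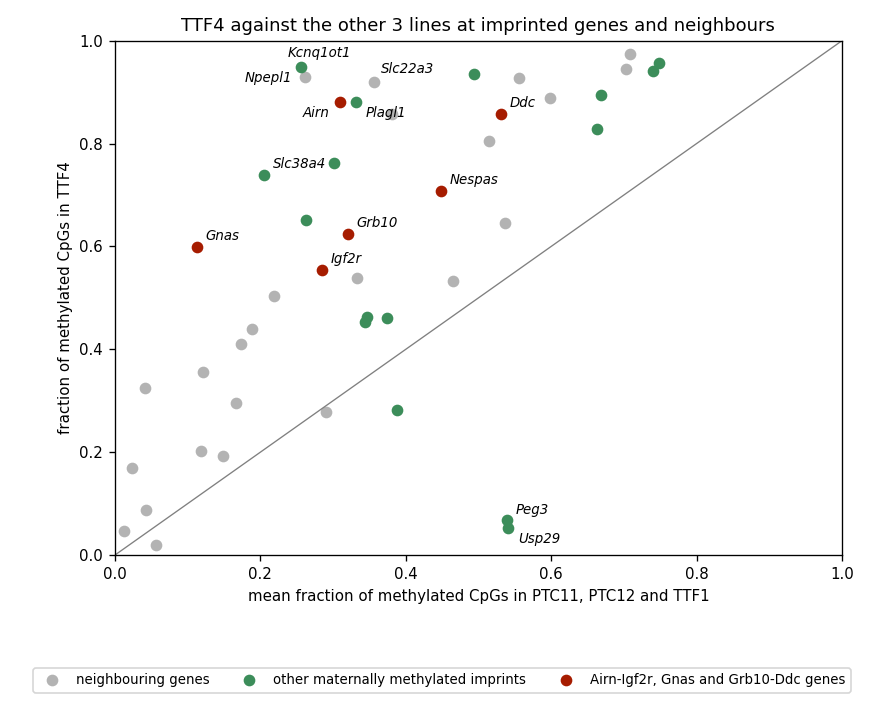
Fraction of methylated CpGs in TTF4 (vertical axis) against the mean of PTC11, PTC12 and TTF1 (horizontal axis) at the 6 genes, the 16 other maternally methylated imprints and 24 neighbouring genes, with a line where both are equal. Airn lies high on the left with Plagl1, Kcnq1ot1, Npepl1 and Slc22a3, and Peg3 and Usp29 lie near 0 in TTF4.

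Among 24 neighbours of the 3 loci TTF4 was the highest line at 19 in methylation, with a median excess of 0.236. By mean fraction the lowest were Mrpl18 (0.0210) and Map3k4 (0.0480), and the highest was Slc22a2 (0.774), an organic cation transporter gene beside Igf2r. None passed the limma threshold, of 24 tested in methylation, 13 in H3K4me3 and 20 in H3K36me3. Slc22a3, a transporter gene known to be silenced on the paternal allele by Airn in placenta, had 0.299, 0.424, 0.347 and 0.920 in PTC11, PTC12, TTF1 and TTF4. Its H3K4me3 was 3.63, 4.56 and 5.01 RPKM in the first 3 lines and had no value in TTF4, as at Airn. The same loss of the value in TTF4 alone was found at Pnldc1 beside Igf2r (0.927 methylated in TTF4), Npepl1 upstream of Gnas (0.930) and Ikzf1 near Grb10 (0.439). Of the genes with H3K4me3 in the other 3 lines, 4 of 17 neighbours and 1 of 5 members, Airn, lacked it in TTF4, against the 7.52% of all such genes.

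The factors that keep imprints were the last list. ZFP57, ZFP445 and TRIM28 bind methylated imprints, DPPA3 protects methylation in the early embryo, and DNMT1 with UHRF1 copies it at replication. TTF4 had the highest fraction at 5 of the 6 genes of these factors, and Trim28 was highest in PTC12. By mean fraction the lowest were Uhrf1 (0.136) and Zfp445 (0.333), and the highest Dnmt1 (0.693) and Trim28 (0.531). Zfp57 had fractions of 0.351, 0.330, 0.175 and 0.933 in PTC11, PTC12, TTF1 and TTF4, and no H3K4me3 value in any line. Its H3K36me3 was 2.75, 7.17 and 8.56 RPKM in PTC11, PTC12 and TTF4, at percentiles 96.7, 92.8 and 98.4, with none in TTF1. Dppa3 had fractions of 0.113, 0.359, 0.0742 and 0.856, and no H3K36me3 value in PTC12 or TTF4. Whether these rows begin at the start in use was not tested. None passed the limma threshold, of 6 tested in methylation, 2 in H3K4me3 and 3 in H3K36me3.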

How the data were processed

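The samples were 16 libraries of 4 iPSC lines, 4 each for CpG methylation by nanopore sequencing and for H3K4me3, H3K36me3 and H3K27me3. For methylation the authors deposited a fraction of methylated CpGs for each gene, taken as the mean of windows of 300 bp in steps of 30 bp within 1000 bp of the start. For histone marks the deposited unit is RPKM, which the authors obtained after alignment to mm10, peak calling with MACS2 2.0.10 per the submitters' processing notes, subtraction of input and averaging over peaks. Genes without a retained peak have no value, and depth cannot be recovered.

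Groups came from the sample labels. TTF were compared with PTC lines over all genes with a value in 4 lines by limma 3.58.1 (R 4.3.3; linear models with a moderated variance trend) on fractions minus the line mean or on log2(RPKM + 1), with a Benjamini-Hochberg threshold of 0.05. Partner genes were compared within lines by exact two-sided sign-flip permutation tests. The study's methods name littermates as the source and independent animals as replicates, but the labels tie no line to an animal, so p-values measure only the spread between lines. The fits were checked on simulated data. Named genes were the 6 members, the 2 highest and 2 lowest mean fractions of each list, any list gene past the threshold, and the 2 maternally methylated genes nearest to Airn, Nespas and Grb10. One gene that this rule names is not reported here. Slc22a3, Pnldc1, Npepl1, Ikzf1, Nnat, Peg3, Usp29, H19, Meg3, Rasgrf1, Zfp57, Dppa3 and the unnamed rows of the Gnas locus were singled out after their values were seen. So were Nap1l5, Esrrb, Lrp2, Aqp1 and Hnf4a. The members and lists were chosen with earlier results of these data known. Alternatives varied centring, quantile normalization, pseudocount, filters, missing values, chromosomes X and Y, the variance trend and each line left out. Annotation was from GENCODE and RefSeq.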

Additional observations from a re-analysis of the deposited data

How the results depend on the processing

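No paired analysis was possible because the PTC and TTF lines share no replicate number in the labels. None of the 6 genes passed the limma threshold under any alternative. Of 74 member differences between origins under other settings 71 kept their direction. The variance trend, the RPKM filter and missing values taken as 0 cannot change the difference at these genes, so those values were fixed in advance. The other 3 reversed, all for H3K36me3 under quantile normalization, to 0.10 at Airn, 0.029 at Nespas and 0.041 at Grb10. The cause was not tested. With a line left out 22 of 64 reversed. In methylation the leave-one-out range was -0.041 to 0.32 at Airn, -0.054 to 0.30 at Nespas and -0.039 to 0.23 at Gnas. In H3K4me3 it was -0.29 to 0.27 at Igf2r, -0.21 to 0.45 at Nespas, -0.29 to 0.14 at Gnas and -0.23 to 0.60 at Grb10. In H3K36me3 it was -0.63 to 0.48 at Airn, -0.85 to 0.32 at Igf2r, -0.58 to 0.23 at Nespas, -0.81 to 0.38 at Gnas, -1.18 to 0.96 at Grb10 and -0.77 to 0.31 at Ddc.

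All 18 values of the pair differences under other settings and all 31 with a line left out kept their direction. Part of this was fixed in advance. Taking missing values as 0 changes nothing at a pair with no missing value. A pair with the same sign in every line cannot reverse when a line is left out. With missing values taken as 0, Airn minus Igf2r in H3K4me3 was -0.82, and Grb10 minus Ddc, which had no value otherwise, was 2.25, by construction.

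The counts of genes called over the whole table were unstable. In methylation 2 of 50657 genes were called (2392 at an unadjusted p under 0.05), against 0 without centring or with quantile normalization, 9 without chromosomes X and Y, 1 with no variance trend, and 0 to 1003 with a line left out. In H3K4me3 66 of 13709 were called, against 102 with a pseudocount of 0.1, 1 with missing values taken as 0, 0 with a mean of at least 1 RPKM, quantile normalization or no variance trend, and 78 to 138 with a line left out. In H3K36me3 19 of 17039 were called, against 44 with a pseudocount of 0.1, 0 under the other settings and 1 to 53 with a line left out.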

Other observations

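The pluripotency marker Zfp42, which encodes REX1, had a methylation fraction of 0.803 in TTF4, against 0.0284 in PTC11, 0.209 in PTC12 and 0.100 in TTF1, and its H3K4me3 was 4.86, 2.54 and 3.11 RPKM in PTC11, PTC12 and TTF1 with no value in TTF4. It was picked after its values were seen. The other 8 pluripotency markers ranged from 0.0249 at Lin28a to 0.747 at Esrrb in TTF4, with Nanog at 0.362 and Sall4 at 0.401. Dppa3 had H3K4me3 of 3.79, 2.83 and 3.24 RPKM in PTC11, PTC12 and TTF1 and none in TTF4.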
